A study of Mus musculus with 6 samples.

Results

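Interferon-stimulated genes were followed in mouse submandibular salivary gland organoids (mSGOs) between day 5 and day 7 of culture. The genes described are 35 named genes out of the 47643 gene identifiers in the count files, and they were found by matching the Ensembl identifiers to gene symbols of the GENCODE vM39 annotation of the mouse genome GRCm39. They were divided by what their proteins do into 7 sensors, 4 transcription factors, 15 antiviral effectors, and 9 protein modifiers and feedback genes. The last group also holds *Rtp4*, *Xaf1* and *Ifi35*, which are described below by other properties. All 35 had a match and at least 1 count, and 33 passed the filter for testing.

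The organoids are multicellular structures grown in Matrigel from dissociated gland cells of female C57BL/6 mice aged 8-12 weeks. Organoids of 3 mice were collected on each day, which gave 3 libraries at day 5 and 3 at day 7. The labels number the mice 1 to 3 on both days, and libraries with the same number were taken as the same mouse. Both days shared the same conditions: no irradiation, no other treatment, and WRY medium with EGF, FGF2, insulin, N2, Y27632, the glucocorticoid dexamethasone, and conditioned media that supply Wnt3a and R-spondin1. No interferon was added, so the comparison concerns the level of these genes in untreated cultures and its change over 2 days. Gland cells in culture lack the blood supply and most immune cells of the gland, which limits the organoids as a model of interferon responses in the tissue. C57BL/6 mice carry a non-functional *Mx1* allele, so counts of *Mx1* are not a measure of active protein.

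Interferons are secreted proteins that warn neighbouring cells of infection. Type I and type III interferons bind receptors coupled to the kinases JAK1 and TYK2, which activate a complex that holds STAT2 and IRF9. The complex enters the nucleus and binds the interferon-stimulated response element (ISRE) in the promoters of its target genes, whereas interferon-gamma acts mainly through the gamma-activated sequence (GAS). Many target genes are themselves sensors or transcription factors of the pathway, so a low tonic level of interferon signalling can set how strongly a cell responds later.

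The ISRE was searched as the letters GAAANNGAAA on both strands, and the GAS as the palindrome TTCNNNGAA, in the 250 bases before and the first 50 bases of the main annotated transcript of each gene. The ISRE letters stood in 18 of the 35 genes (51.4%) and in 835 of 21757 protein-coding genes (3.84%). The GAS letters stood in 8 of the 35 (22.9%) and in 8.82% of protein-coding genes. Neither was found in 14 of the 35 genes (40.0%), against 87.9% of protein-coding genes. By role, the ISRE letters were in 7 of 7 sensors, 1 of 4 transcription factors, 8 of 15 effectors, and 2 of 9 modifiers and feedback genes. A match is a description of the letters and not evidence of binding. Only exact letters in this window were searched, so a missing match does not show that a gene lacks an ISRE or a GAS.

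Stretches of 60 bases, read 5′ to 3′ on the strand of the gene from GRCm39, are given to show how the ISRE letters are arranged. They include the genes below that passed the test and have the letters, *Isg15* and *Bst2*, and 5 genes with the letters that did not pass it. Capitals mark the ISRE letters on either strand, and on the reverse strand the same letters start with TTTC.
Isg15, chr4:156285307-156285366, minus strand: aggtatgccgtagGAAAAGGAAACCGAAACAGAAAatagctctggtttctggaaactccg
Bst2, chr8:71990206-71990265, minus strand: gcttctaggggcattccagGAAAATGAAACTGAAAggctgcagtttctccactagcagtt
Rtp4, chr16:23428586-23428645, plus strand: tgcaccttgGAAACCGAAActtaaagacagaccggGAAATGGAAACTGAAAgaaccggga
Usp18, chr6:121222781-121222840, plus strand: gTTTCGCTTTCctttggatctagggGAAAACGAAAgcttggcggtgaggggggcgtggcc
Ifit1, chr19:34618179-34618238, plus strand: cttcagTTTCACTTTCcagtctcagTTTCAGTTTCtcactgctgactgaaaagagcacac
Ifit3, chr19:34560782-34560841, plus strand: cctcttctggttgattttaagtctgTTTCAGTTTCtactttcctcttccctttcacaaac
Ifit3b, chr19:34585178-34585237, plus strand: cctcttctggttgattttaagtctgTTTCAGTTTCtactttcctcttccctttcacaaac

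In *Isg15*, 3 overlapping matches follow each other within 22 bases, from position -50 to -29 relative to the start of the transcript. In *Bst2*, 2 overlapping matches lie farther from the start, from -132 to -117. *Rtp4* has 4 matches in its window, of which 3 are in the printed stretch. The printed stretches of *Ifit3* and *Ifit3b* are the same 60 letters, and both genes hold a further match upstream. Neither motif was found in the windows of *Ifi44*, *Irf9* and *Trim25*.

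**Figure D1:**
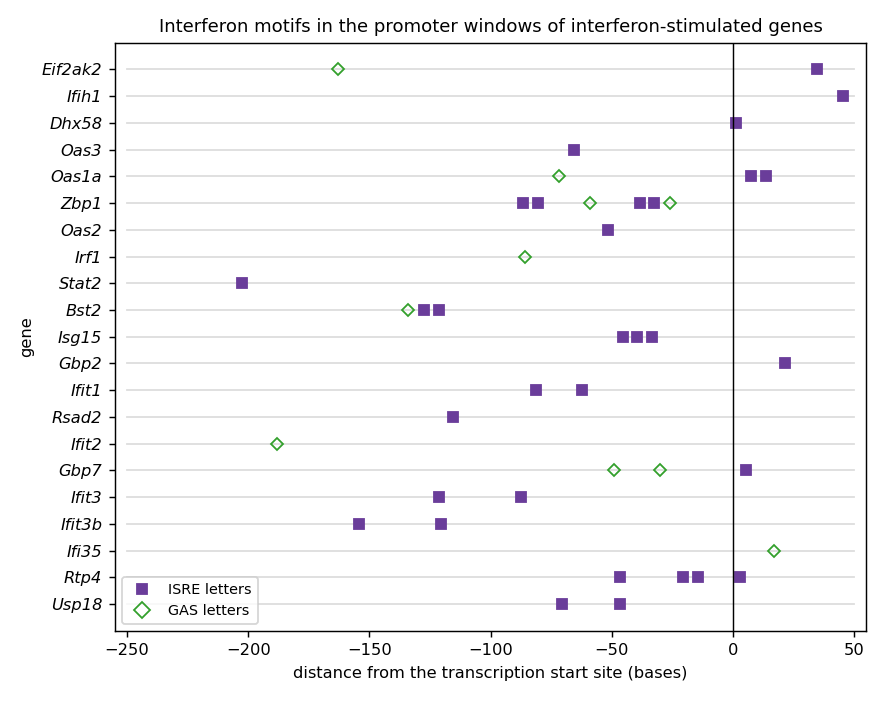
Position of the ISRE letters (filled squares, either strand) and the GAS letters (open diamonds) in the promoter windows of the 21 interferon-stimulated genes with at least 1 match. The horizontal axis is the distance in bases from the start of the main annotated transcript, drawn as a vertical line. Matches lie before the start in most genes, and all those of Ifih1, Gbp2 and Ifi35 lie after it. The ISRE letters of Eif2ak2, Oas1a and Gbp7 also lie after the start, and the match of Dhx58 and 1 match of Rtp4 span it.

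The libraries held 1918198 to 2837397 reads in genes. At this depth a limit of 3 counts corresponds to 1.04 to 1.51 CPM, the number of reads of a gene in 1000000 reads of its library after TMM scaling. CPM count 3′ ends and were not divided by gene length. The 5 entries that name no gene took 13.7% to 14.4% of each day 5 library and 9.12% to 9.74% of each day 7 library. They were not told apart by kind, and their part in the results was not tested. The spread between mice was larger at day 7, with a common biological coefficient of variation of 0.293 against 0.0903 at day 5. The 8 epithelial markers, which mark the cells that form gland organoids, summed to 11558 to 18157 CPM in all 6 libraries. Since RNA came from whole organoids, a change in the share of a cell type and a change in RNA per cell cannot be told apart.

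Most of the 35 genes were read rarely. On average over the days, 26 were under 10 CPM and 9 at or above it, 12 had fewer than 20 counts in all libraries together, and 22 had a count in every library. Their summed level was 240, 235 and 271 CPM at day 5 in mice 1, 2 and 3, and 358, 355 and 429 CPM at day 7. The days did not overlap, and the mean went from 249 ± 19.2 to 381 ± 41.6 CPM (SD, n = 3 mice), a ratio of 1.53. The 26 genes under 10 CPM went from 31.4 ± 9.26 to 75.9 ± 10.6 CPM together, and the 9 others from 217 ± 11.8 to 305 ± 49.9 CPM. These sums get no test because the genes were chosen with earlier results of these data known.

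A gene was called changed when the Benjamini-Hochberg adjusted p of the edgeR quasi-likelihood test was under 0.05 and its log2 fold change, day 7 over day 5, was over 0.6 in size. By this rule 12.0% of the 15792 genes tested were called, 7.22% as higher and 4.82% as lower at day 7. Of the 33 interferon-stimulated genes tested, 5 were called (15.2%), all higher: *Ifi44*, *Bst2*, *Isg15*, *Irf9* and *Trim25*. With an unadjusted p under 0.05, 10 were higher and 0 lower, whereas 14.4% of all genes were higher by that rule. In 11 of the 33, all day 7 values lay above all day 5 values, which held for 15.4% of all genes, and in 0 they lay below, which held for 15.5% (either way, 11 of 33 against 30.9%). The log2 fold change was above 0 in 24 of 33, against 49.6% of all genes. The median was 0.68 over the 33 genes, or 0.60 with genes that have no count on a day set at their bound, and it was -0.01 over all genes.

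**Figure D2:**
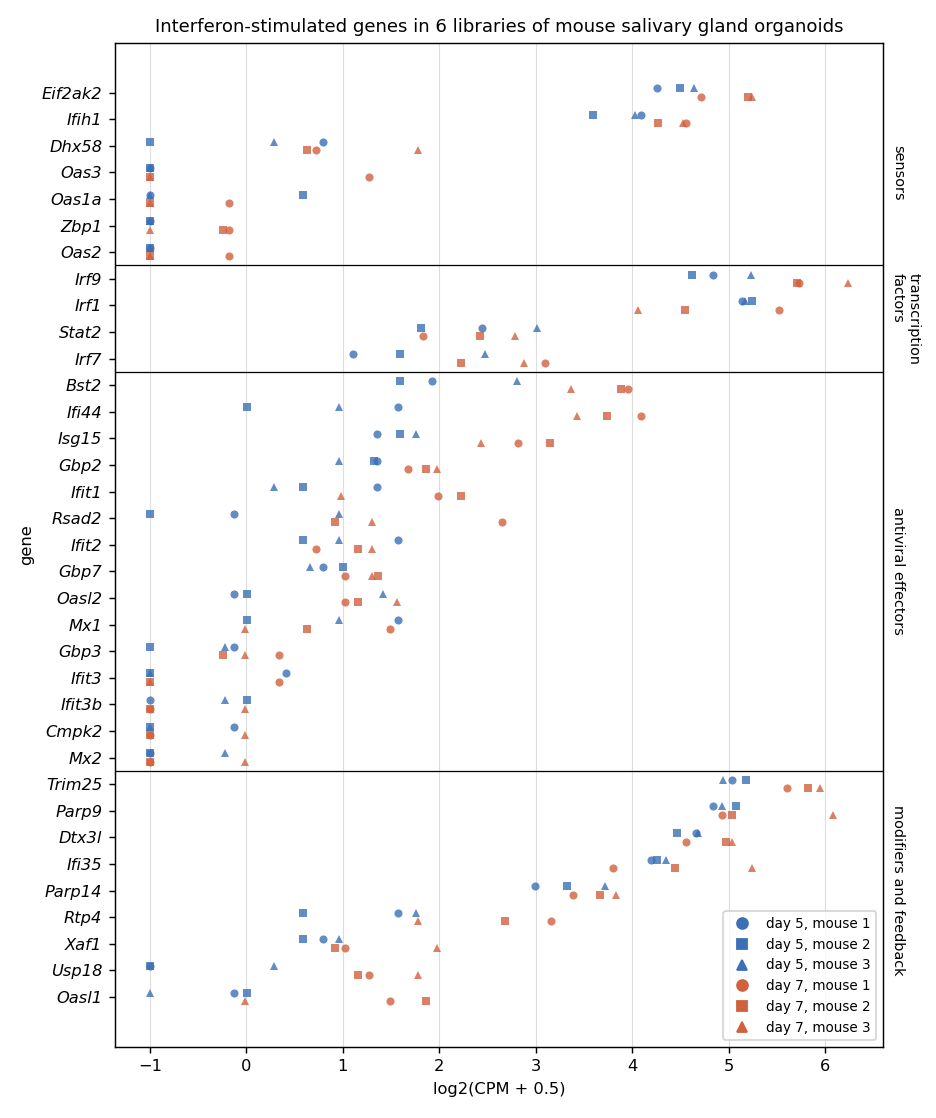
Level of each interferon-stimulated gene in the 6 libraries, by role. The horizontal axis is log2(CPM + 0.5), so a gene with no count sits at -1, blue points are day 5 and orange points day 7, and shapes mark the mice. Orange points lie to the right of all blue points for Ifi44, Bst2, Isg15, Irf9 and Trim25, while Irf1 and Stat2 overlap between days.

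Among the sensors, which bind foreign nucleic acids, none of the 5 tested passed the threshold in edgeR or DESeq2, beside 12.0% of all genes by edgeR. At an unadjusted edgeR p under 0.05, 1 was higher, beside 14.4% of all genes. The double-stranded RNA sensors *Eif2ak2* and *Ifih1* made up most of the reads. *Eif2ak2*, the kinase PKR that stops translation when it binds double-stranded RNA, was at 18.6, 22.1 and 24.5 CPM at day 5 and at 25.7, 36.1 and 37.2 CPM at day 7. The days did not overlap, yet the log2 fold change of 0.60 ± 0.25 (SE) had an adjusted p of 0.131. Without the day 7 library of mouse 1 it was 0.75 with an adjusted p of 0.0473. *Ifih1*, which encodes the RNA helicase MDA5, was at 16.5, 11.5 and 15.8 CPM and then at 23.0, 18.7 and 22.5 CPM. All 3 day 7 values were the higher ones, and the log2 fold change was 0.54 ± 0.27 (adjusted p = 0.217).

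The other sensors were near the limit of detection. *Dhx58*, encoding the helicase LGP2 that modulates MDA5, had 3, 0 and 2 counts at day 5 and 3, 3 and 6 at day 7 (log2 fold change 1.18 ± 0.86, adjusted p = 0.402). *Oas3*, one of the oligoadenylate synthetases that switch on RNase L, had 0 counts in 5 libraries and 5 counts in mouse 1 at day 7. Against the floor of 3 counts over day 5 its pooled level was at least 1.59-fold higher at day 7, but all of it came from 1 library and it was not tested. *Oas2* had 1 count in all, *Zbp1*, a sensor of left-handed nucleic acids, had 2, both at day 7, and *Oas1a* had 2 at day 5 and 1 at day 7. A change in these 3 genes was not detectable at this depth. The last 500 bases of the *Oas1a* transcript match *Oas1g* at 98.0% identity, so its reads may be split or lost. *Zbp1* passed the filter only through its day 7 counts.

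The transcription factors did not move together. *Irf9*, the DNA-binding subunit of the complex it forms with STAT2 (ENSMUSG00000002325, GRCm39 chr14:55841028-55847812, plus strand), was at 28.0, 24.1 and 37.1 CPM at day 5. At day 7 it was at 52.5, 51.7 and 74.9 CPM, so that each mouse was at 1.87 to 2.15 times its own day 5 level. The log2 fold change was 0.99 ± 0.24 (adjusted p = 0.0101). The call was lost without the day 5 library of mouse 1 (adjusted p = 0.0733) or of mouse 2 (adjusted p = 0.101). The 3′ end of *Irf9* has matches of at least 50 bases at 95% identity to transcripts of 262 other genes, the longest of them 205 bases, and an exon overlaps *Rnf31* on the same strand, so its counts are uncertain to that extent.

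*Stat2*, the partner of *Irf9* in the complex, was at 4.95, 3.01 and 7.56 CPM and then at 3.07, 4.86 and 6.36 CPM (log2 fold change -0.18 ± 0.44, adjusted p = 0.852). The values of the days were interleaved. *Irf7*, the factor that amplifies interferon-alpha genes, was at 1.65, 2.51 and 5.04 CPM and then at 8.05, 4.17 and 6.85 CPM. Its log2 fold change was 0.99 ± 0.47 with an adjusted p of 0.196, and in mouse 1 the ratio was 4.88 against 1.66 and 1.36 in the others. A 63-base stretch at its 3′ end is shared with *Phrf1* on the opposite strand.

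*Irf1*, a factor that responds to interferon-gamma and also acts at the ISRE, differed mainly in its spread. It was at 34.6, 37.1 and 35.3 CPM at day 5 and at 45.3, 22.9 and 16.1 CPM at day 7. Mouse 1 had the highest of the 6 values and mouse 3 the lowest. The log2 fold change was -0.33 ± 0.30 (adjusted p = 0.516). Without the day 7 library of mouse 1 it was -0.85 with an adjusted p of 0.0310, the 1 alternative in which any of the 35 genes was called lower.

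The antiviral effectors had the largest relative increase of their summed level among the 4 roles. The sum went from 20.6, 12.5 and 21.6 CPM to 57.9, 51.0 and 40.6 CPM on the later day, which is 2.73 times the mean of day 5. The 3 called effectors, *Ifi44*, *Bst2* and *Isg15*, were 3 of 15 tested (20.0%, all higher, beside 7.22% of all genes). The log2 fold change was above 0 in 9 of the 15, beside 49.6% of all genes. The means of the 3 called genes went from 1.47, 4.10 and 2.48 CPM to 13.2, 13.0 and 6.58 CPM. These 3 genes thus made up most of the increase of the sum. The order of the mice turned over at day 7, where mouse 3 was lowest in this sum.

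*Ifi44*, which encodes an interferon-induced cytoplasmic protein with antiviral activity (ENSMUSG00000028037, chr3:151436559-151455625, minus strand), had 6, 1 and 4 counts at day 5 and 43, 37 and 21 at day 7. These are 2.47, 0.50 and 1.44 CPM and then 16.5, 12.8 and 10.3 CPM. The lowest day 7 value was thus well above the highest day 5 value. The log2 fold change of 3.09 ± 0.46 had an adjusted p of 0.000215. The gene passed the threshold in all 16 alternatives tried, among them the 6 that leave out 1 library.

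*Bst2*, encoding tetherin, which holds budding virus at the cell surface (ENSMUSG00000046718, chr8:71986895-71990114, minus strand), was at 3.30, 2.51 and 6.48 CPM at day 5. At day 7 it was at 14.96, 14.23 and 9.79 CPM. All 3 mice were higher, mouse 3 least so with a ratio of 1.51 against 4.53 and 5.67. The log2 fold change was 1.62 ± 0.38 (adjusted p = 0.00889). Without the day 5 library of mouse 1 or 2, or the day 7 library of mouse 2, the adjusted p was 0.0722, 0.0797 and 0.0532.

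*Isg15*, a ubiquitin-like protein that is coupled to other proteins (ENSMUSG00000035692, chr4:156283883-156285303, minus strand), was at 2.06, 2.51 and 2.88 CPM and then at 6.52, 8.33 and 4.89 CPM. The days did not overlap. Its log2 fold change was 1.40 ± 0.44 and its adjusted p, 0.0443, was the closest to the threshold among the 5. Leaving out any library but the day 7 library of mouse 3 ended the call (adjusted p = 0.0520 without day 7 mouse 1, 0.128 to 0.177 without the others). The adjusted p was 0.0507 with upper quartile scaling, 0.0617 with library totals and 0.130 in DESeq2. A stretch of 110 bases at its 3′ end matches *Gm46878*, which overlaps the gene on the opposite strand.

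Of the other effectors, the 4 IFIT genes, whose proteins bind viral RNA or each other, gave few counts. *Ifit1* had 5, 2 and 2 counts at day 5 and 9, 12 and 3 at day 7 (log2 fold change 1.28 ± 0.63, adjusted p = 0.210). *Ifit2* was at a mean of 1.64 CPM at day 5 and 1.61 CPM at day 7 (log2 fold change -0.05 ± 0.65, adjusted p = 0.990). *Ifit3* and *Ifit3b*, which carry the same printed promoter stretch, had 2 counts at day 5 each and 2 and 1 at day 7. No change could be read from those.

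*Rsad2*, the gene of the radical enzyme viperin, had 1, 0 and 4 counts at day 5 and 15, 4 and 4 at day 7. Mouse 1 at day 7 stood apart from the other libraries, and the log2 fold change of 2.08 ± 0.82 had an adjusted p of 0.111. Without the day 7 library of mouse 1 it was 1.19 with an adjusted p of 0.419. *Cmpk2*, its neighbour on chromosome 12 and a nucleotide kinase, had 1 count at each day.

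The dynamin-like GTPase genes *Mx1* and *Mx2* and the guanylate-binding protein genes did not pass the test. *Mx1* had values of 2.47, 0.50 and 1.44 CPM and then 2.30, 1.04 and 0.49 CPM (log2 fold change -0.20 ± 0.75, adjusted p = 0.913), and *Mx2* had 1 count at each day. *Gbp2* was at 1.84 ± 0.34 CPM at day 5 and 3.08 ± 0.37 CPM at day 7 (SD, n = 3), without overlap (log2 fold change 0.74 ± 0.54, adjusted p = 0.401). *Gbp7* also had no overlap, at 1.27 ± 0.22 and 1.86 ± 0.29 CPM (log2 fold change 0.55 ± 0.65, adjusted p = 0.644). *Gbp3* had 2 and 4 counts on the days, and the pooled ratio of 1.91 had an exact 95% counting interval of 0.274 to 21.1. *Oasl2*, a synthetase-like gene, had 8 counts at day 5 and 14 at day 7 (log2 fold change 0.75 ± 0.74, adjusted p = 0.561).

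Among the 9 modifiers and feedback genes, all log2 fold changes were above 0, from 0.26 to 2.75, and 1 was called (11.1%, beside 7.22% of all genes called higher). *Trim25*, a ubiquitin ligase that acts on the RNA sensor RIG-I and on other proteins of the antiviral response (ENSMUSG00000000275, chr11:88890202-88911122, plus strand), was at 32.2, 35.6 and 30.3 CPM at day 5. At day 7 it was at 47.9, 55.9 and 61.2 CPM. The days were well apart in each mouse, with ratios of 1.49, 1.57 and 2.02. The log2 fold change of 0.75 ± 0.22 had an adjusted p of 0.0281. The adjusted p was 0.0969 to 0.162 without any 1 of the day 5 libraries, 0.0778 without the day 7 library of mouse 2 and 0.0572 with library totals.

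*Usp18* and *Oasl1*, which restrain the pathway, had large ratios on few counts. *Usp18*, which removes ISG15 from proteins and dampens the type I receptor, had 0, 0 and 2 counts at day 5 and 5, 5 and 6 at day 7. The pooled ratio was 7.64 (exact 95% counting interval 1.80 to 68.5), and the log2 fold change of 2.75 ± 0.94 had an adjusted p of 0.0641 (0.0448 without a filter and 0.0222 with limma voom). *Oasl1*, which represses translation of *Irf7* in mice, had 1, 1 and 0 counts and then 6, 9 and 1. Its adjusted p was 0.0820, and 0.0225 without the day 7 library of mouse 3. *Rtp4*, which encodes a transmembrane protein that restricts RNA viruses, was at 2.47, 1.00 and 2.88 CPM and then at 8.44, 5.90 and 2.94 CPM. The lowest day 7 value, in mouse 3, was just above the highest day 5 value, and the log2 fold change of 1.40 ± 0.52 had an adjusted p of 0.0872 (0.0196 without the day 7 library of mouse 3).

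The ADP-ribosylation genes were read at higher CPM and differed less. *Parp9* and *Dtx3l*, whose proteins form a complex of an ADP-ribosyltransferase and a ubiquitin ligase, had log2 fold changes of 0.49 ± 0.28 (adjusted p = 0.287) and 0.26 ± 0.24 (adjusted p = 0.535). At day 7 *Parp9* was at 29.9 and 32.3 CPM in mice 1 and 2 and at 67.1 CPM in mouse 3, against 28.0 to 33.1 CPM at day 5. *Parp9* and *Dtx3l* overlap on opposite strands, and whether the counting used strand is not given in the sources used here. *Parp14*, another ADP-ribosyltransferase, was at 9.86 ± 2.61 and 11.9 ± 1.88 CPM (SD, n = 3; adjusted p = 0.652). *Ifi35*, which encodes a leucine-zipper protein, was at 17.7, 18.6 and 19.8 CPM and then at 13.4, 21.2 and 37.2 CPM (adjusted p = 0.545), and 231 bases of its 3′ end are shared with *Vat1* on the opposite strand. *Xaf1*, encoding a pro-apoptotic factor, had 9 counts at day 5 and 15 at day 7 (adjusted p = 0.563).

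**Figure D3:**
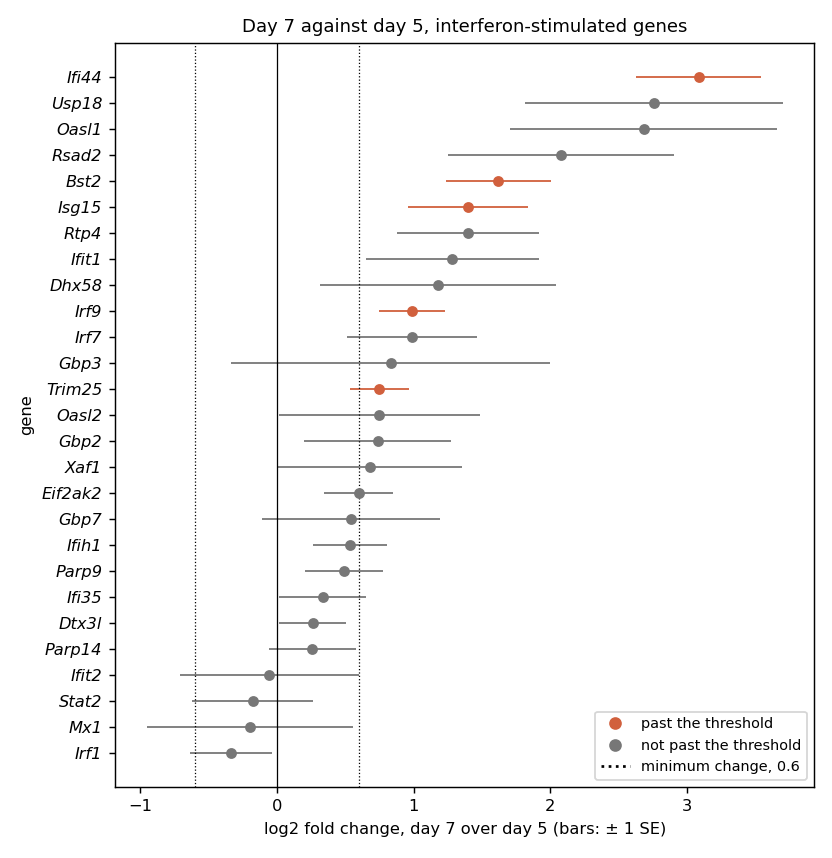
Log2 fold change, day 7 over day 5, of the 27 interferon-stimulated genes with more than 3 counts on a day and a count on both days, with bars of 1 SE on each side. Orange marks the 5 called genes and dotted lines the minimum change of 0.6. Usp18 and Oasl1 have larger estimates than Bst2, but their SEs are 0.94 and 0.97.

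The order of the mice at day 7 was the same in the sensors and the modifiers and differed in the other roles. The sum of the modifiers and feedback genes was 138, 165 and 221 CPM in mice 1, 2 and 3, after 114, 121 and 123 CPM at day 5, so that mouse 3 was highest. In the effectors mouse 3 was lowest and mouse 1 highest. The sensors went from 36.3, 34.6 and 41.1 CPM to 52.9, 56.2 and 62.6 CPM without overlap. The transcription factors went from 69.3, 66.8 and 85.0 CPM to 109, 83.6 and 104 CPM, and they overlapped, since mouse 2 at day 7 was below mouse 3 at day 5. Within this sum the mean of *Irf9* went from 29.7 to 59.7 CPM and that of *Irf7* from 3.07 to 6.36 CPM. The means of *Irf1* (35.7 and 28.1 CPM) and *Stat2* (5.17 and 4.76 CPM) were lower at day 7.

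**Figure D4:**
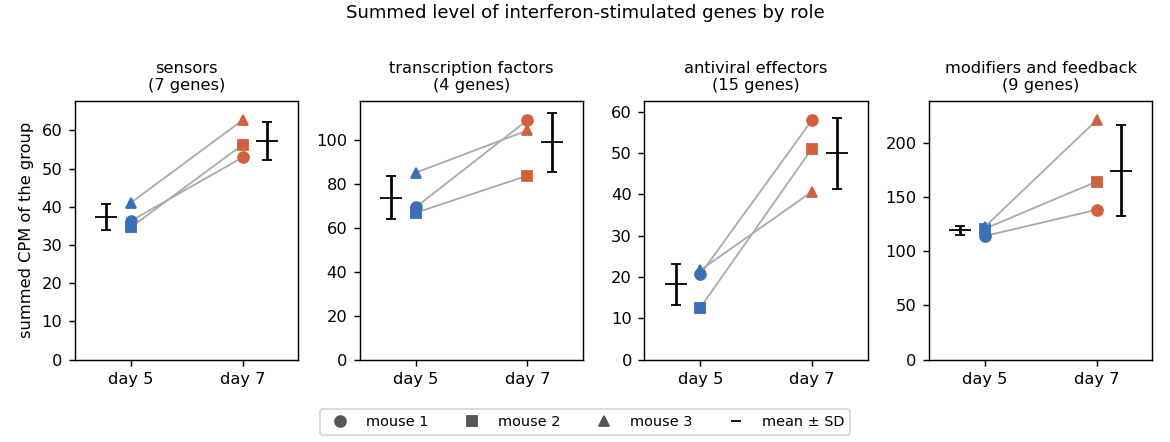
Summed CPM of the genes of each role at day 5 and day 7, with a line for each mouse and the mean ± SD of 3 mice beside the points. All vertical axes start at 0 and have their own scale. The sum of every mouse was higher at day 7 in every role. In the transcription factors the mean sum rose through Irf9 and Irf7, while the means of Irf1 and Stat2 were lower at day 7. The relative difference was largest in the effectors, with means of 18.3 and 49.9 CPM, and Ifi44, Bst2 and Isg15 made up most of that increase.

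The change was set beside the promoter letters as a description. It was read over the 27 genes for which a fold is given, whose median log2 fold change was 0.75. Of the 12 with the ISRE letters, 2 were called and 11 had a positive log2 fold change, with a median of 1.23 and a range from -0.18 to 2.75. Of the 15 without them, 3 were called and 12 were positive, with a median of 0.68 and a range from -0.33 to 3.09. The share called over all genes was 12.0%. The ranges overlapped over most of their length. Over all 33 genes tested, 12 of 16 with the letters and 12 of 17 without them were positive, beside 49.6% of all genes. The medians were then 0.96 and 0.49. The differences between the medians were not tested.

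The genes that make or receive interferon were then described. Of 21 interferon genes, 19 had 0 counts in all 6 libraries, among them *Ifnb1*, *Ifng*, *Ifnl2* and *Ifnl3*, and *Ifne* and *Ifnz* had 1 count each. Transcripts of the ligands were thus under the limit of 3 counts in each library. Of the 6 receptor genes tested, 1 was called (16.7%, beside 12.0% of all genes), and 3 were called without the day 7 library of mouse 3. *Ifngr1*, the ligand-binding chain of the interferon-gamma receptor, rose from 40.4, 52.7 and 42.5 CPM to 79.4, 128 and 82.2 CPM (log2 fold change 1.10 ± 0.23, adjusted p = 0.00369). Its partner chain *Ifngr2* was at 18.3 ± 1.64 and 12.4 ± 3.29 CPM, with all day 7 values below those of day 5 (adjusted p = 0.209, and 0.0374 without the day 7 library of mouse 3).

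The type I receptor chain *Ifnar2* was at 32.6, 36.6 and 43.9 CPM and then at 58.7, 51.0 and 61.2 CPM (log2 fold change 0.59 ± 0.21, adjusted p = 0.0832). *Ifnar1*, the other chain, differed by -0.10 ± 0.40 (adjusted p = 0.925). The type III receptor gene *Ifnlr1* was at 9.97 and 13.9 CPM in mice 1 and 2 at day 7 and had no count in mouse 3, after 3.51 to 5.77 CPM at day 5 (adjusted p = 0.403, and 0.0102 without that library). *Il10rb*, which it shares with interleukin receptors, was at 21.3 ± 2.02 and 27.9 ± 3.21 CPM without overlap (adjusted p = 0.329).

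None of 13 genes of receptor signalling and its inhibitors was called by edgeR or DESeq2, beside 12.0% of all genes by edgeR. Their median log2 fold change was 0.18. At an unadjusted edgeR p under 0.05, 2 of the 13 were higher, beside 14.4% of all genes. The kinases differed by 0.18 ± 0.19 (*Jak1*), 0.35 ± 0.19 (*Jak2*) and 0.48 ± 0.31 (*Tyk2*). The feedback inhibitor *Socs3* was at 26.4, 13.6 and 11.5 CPM and then at 16.1, 7.98 and 0.98 CPM, lower in each mouse. Its adjusted p was 0.220, but 0.00476 with the mouse as a block (log2 fold change -1.18), 0.0245 without a filter and 0.0154 without the day 7 library of mouse 1. *Socs1* differed by -0.72 ± 0.69 (adjusted p = 0.547).

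Of 22 tested genes that induce interferon, 1 was called higher and 2 lower (13.6%, beside 12.0% of all genes), and 5 were called without the day 7 library of mouse 1 or of mouse 3. *Ticam1*, the adaptor TRIF of Toll-like receptor 3, rose from 3.30, 3.01 and 6.84 CPM to 14.2, 18.4 and 18.6 CPM (log2 fold change 1.91 ± 0.36, adjusted p = 0.00167). *Cgas*, the sensor of cytosolic DNA, fell from 20.6, 30.1 and 23.4 CPM to 11.5, 9.72 and 7.83 CPM (log2 fold change -1.33 ± 0.28, adjusted p = 0.00455, and 0.0544 without the day 5 library of mouse 2). *Dhx9*, a helicase with many roles in RNA metabolism, fell from 246 ± 7.00 to 130 ± 26.5 CPM (adjusted p = 0.0044). *Sting1*, the adaptor downstream of *Cgas*, was at 16.1, 20.6 and 23.4 CPM and then at 22.2, 35.8 and 48.9 CPM. Its adjusted p was 0.0718, with 0.0295 under the mouse as a block, 0.0253 without a filter and 0.00727 without the day 7 library of mouse 1. *Rigi* and *Mavs*, the sensor and adaptor next to *Ifih1*, differed by 0.02 ± 0.26 and -0.02 ± 0.28, and *Irf3*, the factor they activate, by -0.61 ± 0.24 (adjusted p = 0.110, and 0.0261 without the day 7 library of mouse 3).

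**Figure D5:**
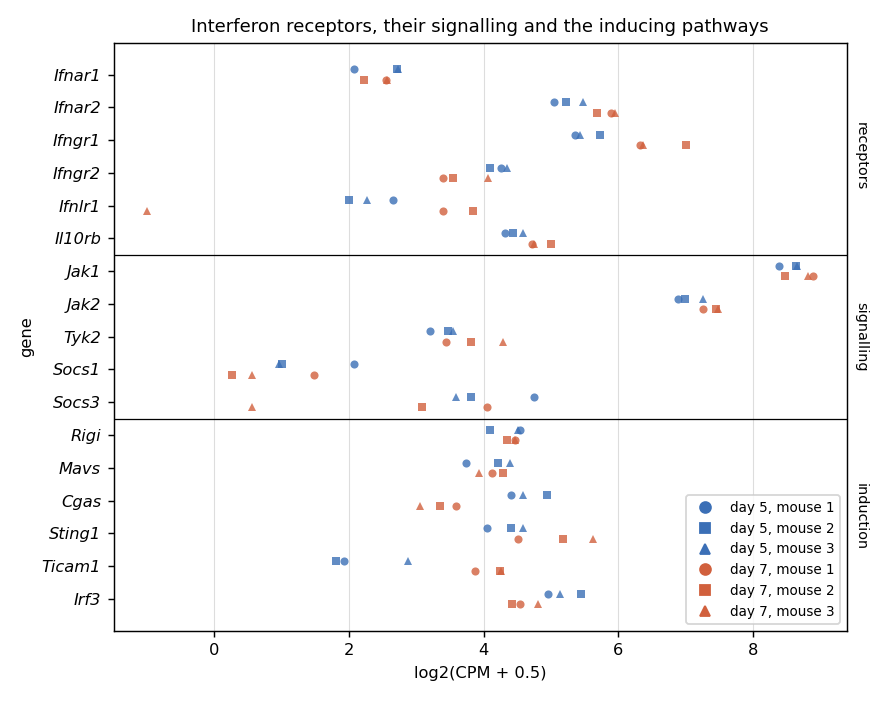
Level in the 6 libraries of the interferon receptors, of genes that carry their signal, and of genes that induce interferon. The horizontal axis is log2(CPM + 0.5), with colours and shapes for days and mice. Day 7 lies to the right of day 5 for Ifngr1 and Ticam1 and to the left for Cgas and Irf3, while Rigi and Mavs overlap.

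A further list of 85 interferon-stimulated genes outside the 35 had 70 genes tested, of which 11 were called higher and 3 lower (20.0%, beside 12.0% of all genes), with a median log2 fold change of 0.47. The 14 calls became 7 without the day 5 library of mouse 1 or of mouse 2 and 8 without that of mouse 3, and 7 to 17 over all libraries left out in turn. The 5 rises with the smallest p were *Ifi209*, *Shisa5*, *Lgals3bp*, *Slfn2* and *Isg20*. *Ifi209*, a PYHIN family gene, went from 1.65, 1.51 and 0.72 CPM to 11.9, 17.4 and 7.34 CPM (log2 fold change 3.25 ± 0.49), about the change of *Ifi44*. *Slfn2*, a Schlafen gene, had a log2 fold change of 2.50 ± 0.47, and *Lgals3bp*, a secreted glycoprotein gene, one of 1.80 ± 0.29. On the same scale *Shisa5* rose by 1.52 ± 0.24 and *Isg20*, an RNA exonuclease gene, by 1.36 ± 0.31, the latter with an adjusted p of 0.0650 and 0.0519 without the day 5 library of mouse 2 or 3.

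The 3 falls were *Slfn9*, *Psme2* and *Ifi30*. *Slfn9* fell from 67.6, 64.3 and 65.6 CPM to 24.2, 22.9 and 32.8 CPM (log2 fold change -1.31 ± 0.22), so that Schlafen genes moved both ways. *Psme2*, a proteasome activator subunit gene, differed by -1.30 ± 0.28, and *Ifi30*, a lysosomal thiol reductase gene, by -1.09 ± 0.30. The call of *Ifi30* was lost without any 1 of the day 5 libraries or the day 7 library of mouse 2 (adjusted p = 0.0810 to 0.136).

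Genes induced mainly by interferon-gamma were seldom read. Of 30, 15 had no count in any library, among them *Ciita*, *Cd74* and *Cxcl9*. Of 12 tested, 1 was called (8.33%, beside 12.0% of all genes). With the mouse as a block 2 were called, beside 14.8% of all genes, and in DESeq2 0 were called. *H2-Ab1*, a class II histocompatibility gene, had 2, 1 and 3 counts at day 5 and 24, 9 and 3 at day 7 (log2 fold change 2.43 ± 0.72, adjusted p = 0.0337). Most day 7 counts were in mouse 1, and without that library the log2 fold change was 1.47 (adjusted p = 0.210). Its call was lost without any library but the day 7 library of mouse 3 (adjusted p = 0.0593 to 0.210) and in DESeq2 (0.0728).

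Markers of other cells that can respond to interferon were read beside these values. The summed CPM of 10 macrophage markers lay between 0.72 and 2.06 on the earlier day and between 3.07 and 6.85 on the later day, and *Cd68*, also a lysosomal gene of other cells, made up all of the day 7 sum (log2 fold change 2.36, adjusted p = 0.0151). *Adgre1*, *Csf1r*, *C1qa*, *C1qb*, *C1qc*, *Lyz2* and *Mrc1* had 0 counts in all libraries. The 9 leukocyte markers summed to 46.2 to 49.1 CPM and then 50.0 to 88.6 CPM, nearly all of it *Arhgdib*. *Ptprc*, the pan-leukocyte gene, had 1 count in all, and *Cd52*, *Coro1a*, *Tyrobp*, *Fcer1g* and *Rac2* had 0. Of 12 lymphocyte and plasmacytoid dendritic cell markers 10 had 0 counts, and the sum was 0.35 to 2.88 CPM.

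The 11 fibroblast markers summed to 10.3 to 17.1 CPM at day 5 and 24.5 to 25.3 CPM at day 7, nearly all of it *Fbln1*, with *Col1a2*, *Col3a1*, *Lum* and *Dpt* at 0. The 10 endothelial markers summed to 11.9 to 14.1 and 13.9 to 27.4 CPM, with *Cdh5*, *Tek* and *Plvap* at 0. The part of these cells in the changes above was not tested.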

How the data were processed

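RNA of untreated organoids was measured in 6 libraries (3 mice at 2 days) with the QuantSeq 3′ kit. The files deposited by the authors hold whole-number counts per Ensembl gene, not normalised, from reads aligned to GRCm39. The labels and methods name edgeR. The aligner, annotation release and strand setting are not given in the sources used here. The 5 entries that name no gene were left out, and 0 columns of other samples were present.

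Symbols were matched by identifier to GENCODE vM39 (91.2% of 47643). The filter kept genes that had 1 or more counts in 2 or more libraries, and these were tested with edgeR 4.0.16 in R 4.3.3 (TMM, two-sided quasi-likelihood F test, day as the only term, Benjamini-Hochberg adjustment over 15792 genes). SE is the absolute log2 fold change divided by the square root of F. Folds are not given for 7 genes with no more than 3 counts on each day. Limma 3.58.1 (voom) and DESeq2 1.42.0 were alternatives. That the same mouse gave both days was read from the mouse numbers in the labels. The deviations of the libraries with the same number from the day means correlated at 0.14, -0.10 and 0.16 for mice 1, 2 and 3 over 8171 genes. No 2 libraries of a day agreed within sampling noise. Counting intervals cover counting error only. Transcript 3′ ends of 500 bases were compared with other genes by blastn 2.17.0 (matches of at least 50 bases at 95% identity). The test was checked on simulated counts with the same spread on both days, and with changes placed only in genes above a minimum level. That check does not cover the larger spread at day 7 or changes in genes with few counts.

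The 35 genes and all lists were chosen with earlier results of these data known. The text names all 35, a set of receptor, signalling and induction genes whatever their values, and for each list up to 5 genes in each direction with the smallest p among those called. A gene of that set is not reported here.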

Additional observations from a re-analysis of the deposited data

How the results depend on the processing

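The number of interferon-stimulated genes past the threshold was 5 in the main analysis. It was 3 with library totals only, 8 without a filter on low counts (*Rsad2*, *Rtp4* and *Usp18* in addition), and 1 to 7 when 1 library was left out (1 without day 5 mouse 1 or 2, 3 without day 5 mouse 3, 2 without day 7 mouse 2), with *Ifi44* among them in each case. With the mouse as a replicate block the same 5 genes were called, while the count over all genes went from 1901 to 2339. Of the other genes named, the block changed the call of *Socs3* and *Sting1* only. Leaving out 1 library gave 794 to 2575 genes over all genes and 10 to 28 genes over the pathway lists, against 1901 and 19. The split of calls was 1140 higher and 761 lower, and 950 higher and 1008 lower with library totals. With library totals the median of all genes was -0.10, against -0.01. The median over the interferon-stimulated genes was 0.58 with limma voom and 0.57 with filterByExpr, which keeps 14 of them, and 0.56 to 0.75 without 1 library. Signs reversed in genes that were not called. Over the libraries left out in turn, *Stat2* ranged from -0.42 to 0.22, *Ifit2* from -0.27 to 0.34, *Mx1* from -0.87 to 0.33, *Ifi35* from -0.11 to 0.62, *Ifnar1* from -0.30 to 0.039, *Rigi* from -0.11 to 0.090 and *Mavs* from -0.20 to 0.14. *Rigi* was also at -0.019 with upper quartile scaling and at -0.073 with library totals, and with limma voom *Mavs* was at 0.0072 and *Ifnlr1* at -0.26. The causes of these shifts were not tested. Depth limits the 26 genes under 10 CPM most.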
